A study of Mus musculus with 12 samples.

Results

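The mRNAs of 8 genes that set how the liver stores, releases and breaks down sugar were followed in mouse livers with and without Pml, on a high-fat and a low-fat diet. They are Pklr, Pck1, G6pc, Fbp1, Gys2, Pygl, Slc2a2 and Khk, and every probe set that the array's annotation ties to exactly 1 of these symbols was taken: 10 probe sets of 45141, 3 of them for Pklr and 1 for each of the other 7 genes. The array named 17097 genes in this way. The study profiled total RNA of liver tissue from male mice on single-channel arrays, 1 array for each of 12 extracts. The 4 groups of 3 extracts were Pml knockout on the high-fat diet (60% of calories from fat), wild type on the high-fat diet, Pml knockout on the low-fat diet (10% of calories from fat) and wild type on the low-fat diet. All of these mice had 20 weeks of their diet and then 8 h without food, and a group held 8 mice, of which 3 extracts were analysed. The knockout allele, the strain and the age of the mice were not stated in the material at hand. Nothing in the labels says outright that each extract is a separate mouse, so p-values measure the spread between extracts. The word liver, where single values or numbers of livers are given, stands for 1 such extract. Values are the deposited log2 signals, on which a difference of 1 is a doubling, and they allow livers to be compared for 1 probe set, not the abundance of 1 gene with that of another.

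In the fasted liver glucose comes from the breakdown of glycogen and from gluconeogenesis, which builds it from lactate, glycerol and amino acids, and both routes share their last step. Pck1 opens gluconeogenesis from oxaloacetate, Fbp1 removes a phosphate from fructose-1,6-bisphosphate, and G6pc frees glucose from glucose-6-phosphate in the endoplasmic reticulum. Pygl is the liver glycogen phosphorylase and Gys2 the liver glycogen synthase, so these 2 enzymes stand at opposite sides of the glycogen store. Slc2a2 is the high-capacity glucose transporter GLUT2 of the hepatocyte surface. Pklr, the liver pyruvate kinase, closes glycolysis, and Khk, ketohexokinase, traps fructose. Pklr and Khk are known targets of ChREBP (Mlxipl), a transcription factor that reads sugar supply, while glucagon and glucocorticoids raise Pck1 and G6pc in fasting.

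The arrays were much alike, with array medians from 3.94 to 3.996. Pml, from its brighter probe set, was at 3.04 to 3.82 in the 6 knockout livers and at 4.92 to 5.40 in the 6 wild-type livers. The 9 hepatocyte markers with a probe set averaged 12.4 to 12.6 on the 12 arrays. Markers of macrophages, 11 with a probe set, were low in knockout low-fat replicate 2 (mean 4.88) and knockout high-fat replicate 3 (5.43), against 5.96 to 6.89 on the other 10 arrays. The averaged diet changes of Gys2, Pklr and G6pc are given with and without these 2 arrays. Those of the other members and of the marker lists are given with them alone. In whole tissue, fewer cells of a type and less RNA per cell cannot be told apart.

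The promoters are shown for Pklr and Khk, the 2 members with the highest Pearson's r over the 12 arrays (0.908). That of G6pc, the member with the widest spread between livers, is shown too. RefSeq promoters (build GRCm38.p6) were at hand for 7 of the 8 genes, 8 promoters in all, since Pklr has an upstream erythroid start and a downstream liver start. The missing gene is Gys2, so its promoter was not searched for any motif. Each run holds the 250 bases before the start, 5′ to 3′, and capitals mark matches to 9 searched motifs on either strand.
Pklr, liver start, chr3:89136373-89136622, plus strand: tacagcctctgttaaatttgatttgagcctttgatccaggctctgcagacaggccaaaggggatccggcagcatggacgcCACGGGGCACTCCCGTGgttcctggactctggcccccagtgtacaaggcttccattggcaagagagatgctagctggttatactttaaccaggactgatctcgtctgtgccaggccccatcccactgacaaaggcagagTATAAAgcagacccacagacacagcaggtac
Khk, chr5:30921309-30921558, plus strand: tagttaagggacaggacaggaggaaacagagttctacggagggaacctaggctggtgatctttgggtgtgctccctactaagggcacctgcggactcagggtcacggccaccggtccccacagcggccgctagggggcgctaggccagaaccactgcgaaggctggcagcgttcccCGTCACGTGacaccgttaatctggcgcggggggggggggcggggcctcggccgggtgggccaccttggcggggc
G6pc, chr11:101367466-101367715, plus strand: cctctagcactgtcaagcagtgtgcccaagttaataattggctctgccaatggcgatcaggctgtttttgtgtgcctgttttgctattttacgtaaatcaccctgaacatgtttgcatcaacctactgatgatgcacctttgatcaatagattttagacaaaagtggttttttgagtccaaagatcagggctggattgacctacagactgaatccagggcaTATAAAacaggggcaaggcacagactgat
The carbohydrate response element, searched as CACGNG and CNCGTG with any 5 bases between them, matched the Pklr liver promoter at 170 to 154 bases before the start and no other of the 8 promoters, and 0.0396% of all 32851 promoters of this length hold a match. The E-box CACGTG was found in the Khk promoter at 71 to 66 bases before the start, where it overlaps a match to TGACG, the core of the cyclic AMP response element. An E-box stands in 6.02% of all promoters and TGACG in 17.8%. TGACG also matched once each in the Pck1 and Pygl promoters. TATAAA, which 12.4% of all promoters hold, lay at 31 to 26 bases in the Pklr liver promoter and at 29 to 24 bases in that of G6pc. The full cyclic AMP response element TGACGTCA (1.55% of promoters), the FOXO site TGTTTAC (3.17%), the C/EBP palindrome TTGCGCAA (0.164%), the HNF1 site (GTTAAT and ATTAAC with 1 base between them, 0.00913%) and the direct repeat of AGGTCA with 1 base between the copies (0.0335%) matched none of the 8. TGACG is also part of TGACGTCA. These matches are letters in a window and were not tested as binding sites.

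Among these genes Gys2 was lower on the high-fat diet past the threshold. It fell by 1.27-fold averaged over both genotypes and was the 1 of 7 tested members that passed (Pck1 was too dim to be tested). Pklr, Khk, Pygl and G6pc had lower means on the high-fat diet by 1.43-fold, 1.21-fold, 1.13-fold and 1.64-fold, none of them past the threshold (an adjusted p under 0.05 over all genes), and Fbp1 and Slc2a2 by 1.03-fold each. Among the members 1 of 7 passed as lower in this comparison and 0 as higher, against 1.99% and 2.57% of all 10258 genes tested. An unadjusted p under 0.05 with a lower value was found for 4 of the 7 members (Pklr, Gys2, Pygl and Khk), against 10.1% of all genes. In knockout livers alone there were 4 of 7 (Pklr, G6pc, Gys2 and Pygl), against 9.21% of all genes, and in wild-type livers alone 4 of 7 (Pklr, Fbp1, Gys2 and Khk), against 4.47%. All 7 had a lower mean on the high-fat diet, against 51.2% of all genes.

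**Figure D1:**
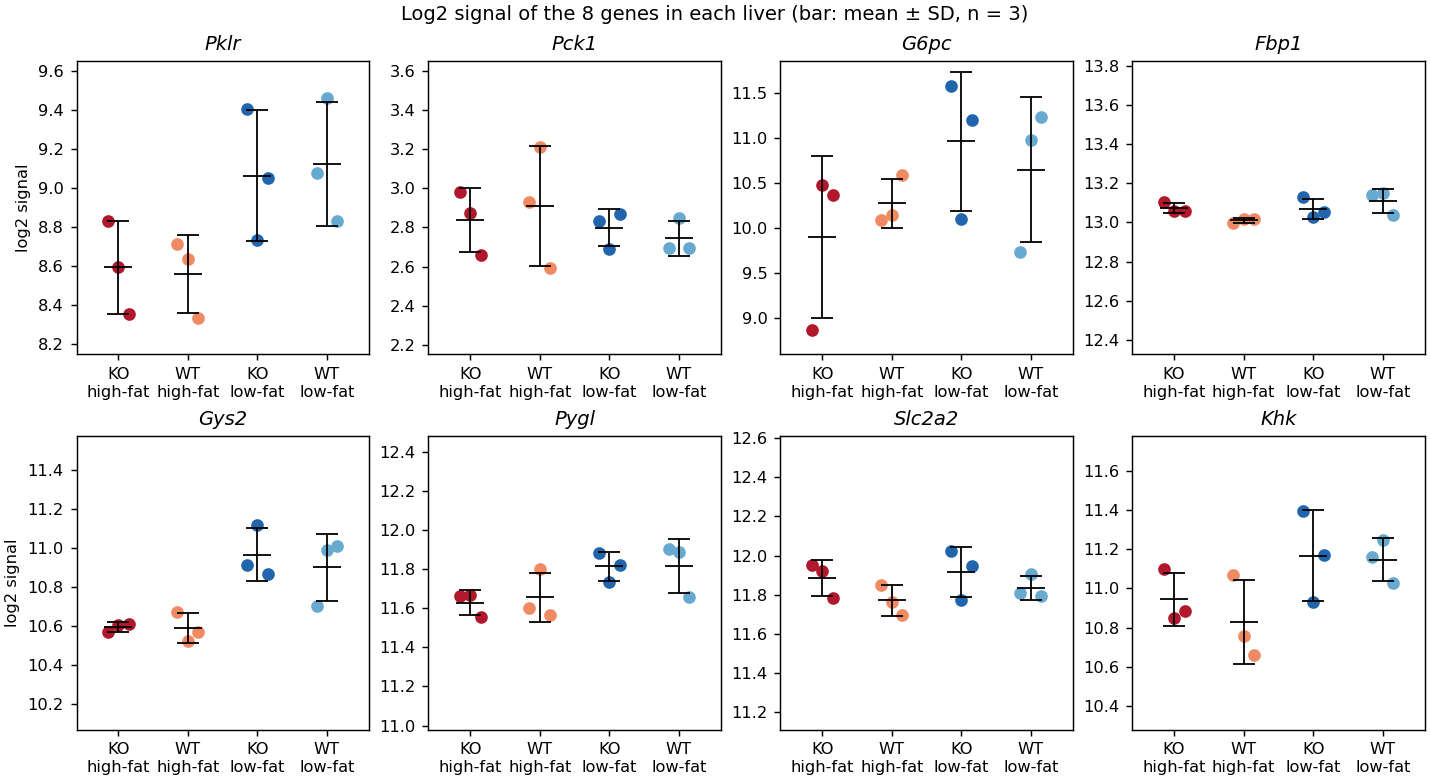
Log2 signal (vertical axis, each panel spanning at least 1.5 units) of the brightest probe set of each of the 8 genes in the 12 livers, grouped by genotype (KO, Pml knockout; WT, wild type) and diet; points are livers and bars the mean ± SD of 3. The 6 high-fat livers lie below the 6 low-fat livers for Gys2, while G6pc spreads widely inside every group but wild-type high-fat.

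Glycogen synthase Gys2 (chr6:142422612-142473130, whole gene on GRCm38.p6, as for the other genes) had log2 signals of 10.57, 10.61 and 10.61 in knockout high-fat livers, against 10.91, 11.12 and 10.86 in knockout low-fat livers. Wild-type livers had 10.67, 10.52 and 10.57 on the high-fat diet, against 10.70, 10.99 and 11.01 on the low-fat diet. Every high-fat liver lay below every low-fat liver, a separation found as lower for 1.46% of all tested genes. The high-fat livers were also closer to each other, with group SDs of 0.0239 (knockout) and 0.0769 (wild type), against 0.134 and 0.171 on the low-fat diet (n = 3 each), a difference that was not tested. Averaged over both genotypes, the log2 change was -0.34 (SE 0.0626, 95% interval -0.48 to -0.21, limma adjusted p = 0.00912). In knockout livers alone it was -0.37 (SE 0.0885, limma adjusted p = 0.0436) and in wild-type livers alone -0.31 (SE 0.0885, limma adjusted p = 0.251). The diet effect in knockout minus that in wild-type livers was -0.06 (95% interval -0.33 to 0.21, limma adjusted p = 0.967), so the genotypes were not shown to differ in it. In the knockout comparison 1.28% of all genes passed as lower, and in the wild-type comparison 0.0975%.

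The averaged Gys2 change passed in each of 23 alternative fits, at -0.39 to -0.30 with an adjusted p of up to 0.0413. That highest p came from the fit without the 2 arrays low in macrophage markers, where the log2 change was -0.31. The call in knockout livers alone was lost when any 1 high-fat liver of either genotype, or knockout low-fat replicate 1 or 2, was left out, with a log2 change between -0.40 and -0.29 (limma adjusted p from 0.0514 to 0.131).

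Markers of liver zones also differed between the diets. Summed as a mean, the 6 periportal markers stood at 10.5 to 10.6 in the high-fat livers, against 10.7 to 10.9 in the low-fat livers. Averaged over both genotypes 5 of the 6 were lower, against 51.2% of all genes, and 3 passed the limma threshold (Hal, Cyp2f2 and Ctsc), against 1.99%, with a median log2 change of -0.33. The 7 pericentral markers stood at 9.39 to 9.63 in the high-fat livers, against 9.08 to 9.47 in the low-fat livers, and 7 of 7 were higher, against 48.8% of all genes. Of these 2 passed (Oat and Slc1a2), against 2.57%, and the median was 0.18. Endothelial markers were lowest in knockout high-fat replicates 2 and 3 and knockout low-fat replicate 2. The mean of the 12 with a probe set was 6.60, 5.83 and 5.83 in knockout high-fat livers, 6.39 to 6.64 in wild-type high-fat livers, 6.87, 5.92 and 6.43 in knockout low-fat livers and 6.44 to 6.74 in wild-type low-fat livers. Between the diets 10 of 11 tested endothelial markers were lower in knockout livers, against 51.6% of all genes, with a median of -0.49 and 3 at an unadjusted p under 0.05 (18.3% of all genes). In wild-type livers 7 of 11 were lower, with a median of -0.04, against -0.0009 over all genes. In knockout against wild-type livers on the high-fat diet 11 of 11 were lower, against 48.5% of all genes, with a median of -0.49. Of these 3 had an unadjusted p under 0.05, against 4.46% of all genes. On the low-fat diet 11 of 11 were lower in knockout livers too, with a median of -0.15, against 0.005 over all genes. There 0 had an unadjusted p under 0.05, against 8.72% of all genes. In limma 0 passed in any of these comparisons. The part of the zone and endothelial markers in the values of Gys2 and the other members was not tested.

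Glycogen phosphorylase Pygl (chr12:70190815-70227683), which works against Gys2, had an averaged change of the same sign as Gys2. Its signals were 11.66, 11.67 and 11.55 in knockout high-fat livers, against 11.88, 11.73 and 11.82 in knockout low-fat livers. Wild-type livers had 11.60, 11.80 and 11.57 on the high-fat diet, against 11.91, 11.89 and 11.66 on the low-fat diet. The knockout groups do not overlap and the wild-type groups do. The averaged log2 change was -0.17 (SE 0.0566, 95% interval -0.30 to -0.05, limma adjusted p = 0.102). It passed in 1 of 23 alternative fits, with a limma adjusted p of up to 0.219 over the 23. That fit left out wild-type low-fat replicate 3, the low-fat liver with the lowest Pygl signal (-0.21, limma adjusted p = 0.0438).

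Liver pyruvate kinase Pklr (chr3:89136122-89146815) had 8.83, 8.60 and 8.35 in knockout high-fat livers, against 9.40, 8.73 and 9.05 in knockout low-fat livers, from the brightest of its 3 probe sets. Wild-type livers had 8.71, 8.63 and 8.34 on the high-fat diet, against 9.08, 9.46 and 8.83 on the low-fat diet. The wild-type groups do not overlap, and the knockout groups overlap through knockout high-fat replicate 1 and knockout low-fat replicate 2. Such a separation in wild-type livers, with the high-fat livers lower, was found for 7.89% of all genes, and among the members for Pklr, Fbp1 and Gys2. In knockout livers it was found for 10.9% of all genes and for Gys2 and Pygl. The averaged log2 change of Pklr was -0.52 (SE 0.136, 95% interval -0.81 to -0.22, limma adjusted p = 0.0513), with -0.47 in knockout and -0.56 in wild-type livers. Over 23 alternative fits it passed at an adjusted p under 0.05 in 7, with a limma adjusted p of up to 0.16. It also passed in the alternative with the looser threshold of 0.10. It passed without knockout high-fat replicate 1 (-0.57, limma adjusted p = 0.0426) and without knockout low-fat replicate 2 (-0.60, 0.0279). The third such fit left out wild-type low-fat replicate 3 (-0.59, 0.0381). Leaving out any other single liver did not make it pass, as without wild-type high-fat replicate 3 (-0.46, limma adjusted p = 0.113). It did not pass without the 2 arrays low in macrophage markers (-0.54, limma adjusted p = 0.0594).

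The 3 Pklr probe sets followed one another across the 12 livers, with Pearson's r of 0.919, 0.919 and 0.981 between pairs, as a description of arrays that share diet and genotype. The second probe set averaged 7.35 ± 0.133 (SD, n = 3) in knockout high-fat livers, against 7.68 ± 0.491 in knockout low-fat livers. In wild-type livers it averaged 7.11 ± 0.281 on the high-fat diet, against 7.69 ± 0.582 on the low-fat diet. The third averaged 6.82 ± 0.166 in knockout high-fat and 7.12 ± 0.351 in knockout low-fat livers, and 6.54 ± 0.322 in wild-type high-fat and 7.17 ± 0.598 in wild-type low-fat livers. Their averaged diet changes were -0.46 (SE 0.188, limma adjusted p = 0.317 among all single-gene probe sets) and -0.47 (SE 0.181, adjusted p = 0.28), close in size to the -0.52 of the brightest. In that same fit the brightest had an SE of 0.131. Their diet groups overlap in both genotypes.

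Ketohexokinase Khk (chr5:30921436-30931248) had 11.10, 10.85 and 10.88 in knockout high-fat livers, against 11.40, 10.93 and 11.17 in knockout low-fat livers. Wild-type livers had 11.07, 10.76 and 10.66 on the high-fat diet, against 11.16, 11.25 and 11.03 on the low-fat diet. The diet groups overlap in each genotype. The averaged log2 change was -0.27 (SE 0.0892, 95% interval -0.46 to -0.08, limma adjusted p = 0.108). Khk tracked Pklr liver by liver: r was 0.908 over the 12 arrays and 0.859 once each group's mean was taken off, again as a description. Slc2a2 tracked Pklr within groups as well (r = 0.925), although its own values varied little. So did Fbp1 (0.791) and Pygl (0.696), but not Gys2 (-0.225) or G6pc (0.0106), so this tracking was not particular to Khk.

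**Figure D2:**
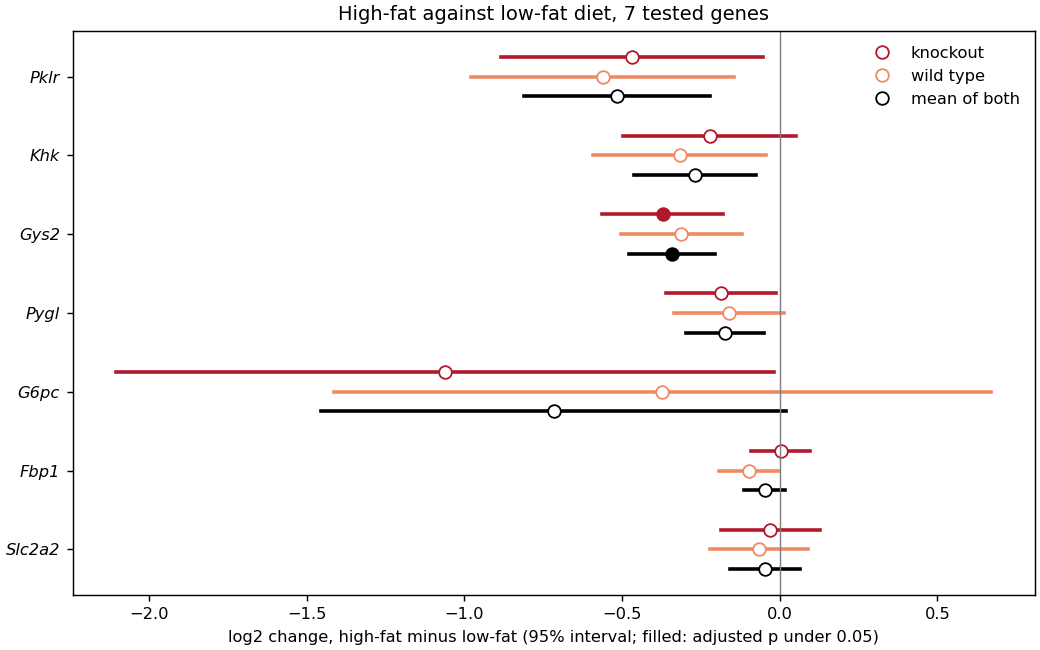
Log2 change on the high-fat minus the low-fat diet (horizontal axis) of the 7 tested genes in knockout livers, wild-type livers and averaged over both; circles are limma estimates, lines 95% intervals, and filled circles passed at an adjusted p of 0.05. Filled circles stand for Gys2 in knockout livers (-0.37) and averaged (-0.34), and the G6pc intervals are the widest.

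Glucose-6-phosphatase G6pc (chr11:101367716-101377903) varied more between livers of a group than nearly any other gene. Knockout high-fat livers had 8.86, 10.48 and 10.36, against 11.58, 10.10 and 11.21 in knockout low-fat livers. Wild-type livers had 10.09, 10.15 and 10.59 on the high-fat diet, against 9.73, 10.98 and 11.23 on the low-fat diet. Within each group but the wild-type high-fat one, a single liver lay far below the other 2: knockout high-fat replicate 1, knockout low-fat replicate 2 and wild-type low-fat replicate 1. The SD within groups was 0.730, above that of 99.4% of the tested genes, whose median was 0.153. The averaged log2 change was -0.72 (SE 0.34, 95% interval -1.45 to 0.02, limma adjusted p = 0.269). It was -1.06 in knockout livers (SE 0.48, limma adjusted p = 0.262) and -0.37 in wild-type livers (SE 0.48, limma adjusted p = 0.888). The knockout value was -0.54 without knockout high-fat replicate 1, and leaving out 1 wild-type low-fat liver moved the wild-type value between -0.83 (without replicate 1) and -0.08 (without replicate 3). The difference between these diet effects, -0.69, had an interval from -2.16 to 0.78, and it was -0.17 when knockout high-fat replicate 1 was left out. Leaving out that liver gave an averaged change of -0.46, and without the 2 arrays low in macrophage markers it was -1.05, neither past the threshold.

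The livers low in G6pc stood at different places in the other genes. Knockout high-fat replicate 1, with the lowest G6pc signal of all 12 livers, had the highest Pklr, Khk, Fbp1 and Slc2a2 signals of its group and the lowest Gys2 signal. Wild-type low-fat replicate 1 had the lowest Gys2 and the highest Pygl signal of its group, and lay between the others in Pklr, Khk, Fbp1 and Slc2a2. Knockout low-fat replicate 2, one of the 2 arrays low in macrophage markers, had the highest Gys2 signal of its group. It had the lowest signal of its group in every other tested member: Pklr, Khk, Slc2a2, Fbp1, Pygl and G6pc. The part of that liver's cell mix in these values was not tested. Once group means were taken off, G6pc had r of 0.0106 with Pklr and -0.0324 with Khk over the 12 arrays.

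**Figure D3:**
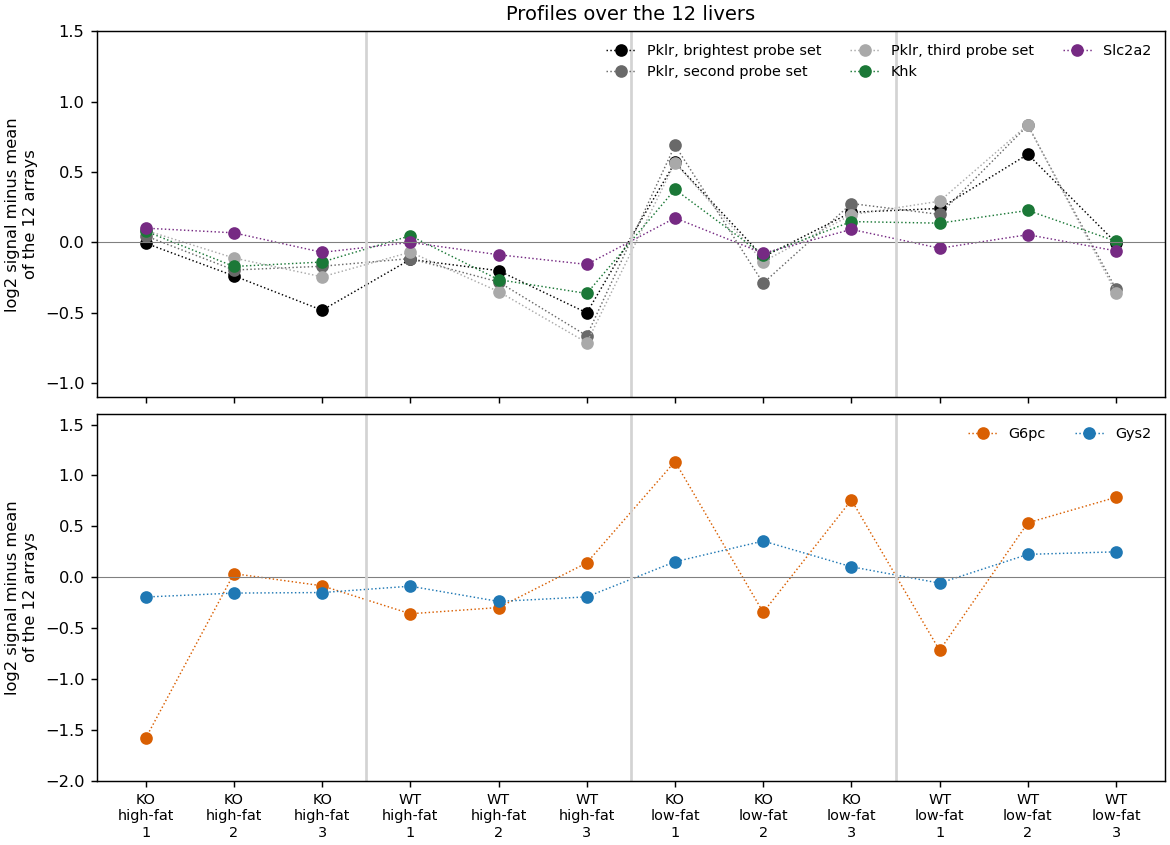
Log2 signal minus the mean of the 12 arrays (vertical axis) in each liver for the 3 Pklr probe sets, Khk and Slc2a2 (upper panel) and for G6pc and Gys2 (lower panel); dotted lines join points and imply no order. The Pklr probe sets and Khk go up and down together, and G6pc is lowest in knockout high-fat replicate 1 (8.86) and wild-type low-fat replicate 1 (9.73).

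Fbp1 and Slc2a2 were nearly level. Fbp1 (chr13:62864753-62888298) had 13.11, 13.06 and 13.06 in knockout high-fat livers, 13.00, 13.02 and 13.02 in wild-type high-fat livers, 13.13, 13.03 and 13.05 in knockout low-fat livers and 13.14, 13.15 and 13.04 in wild-type low-fat livers. Its spread within groups, 0.0432, was smaller than that of all but 0.76% of the tested genes. The highest signal on any array was 14.2, and signals this near the top of the scale tend to understate differences. The averaged diet change was -0.05 (95% interval -0.11 to 0.02, limma adjusted p = 0.417). Wild-type livers did not overlap between the diets (-0.10, limma adjusted p = 0.536), while knockout livers had 0.003 (limma adjusted p = 0.98). Slc2a2 (chr3:28697903-28728361) had 11.95, 11.92 and 11.78 in knockout high-fat livers, 11.85, 11.76 and 11.70 in wild-type high-fat livers, 12.03, 11.77 and 11.94 in knockout low-fat livers and 11.81, 11.91 and 11.79 in wild-type low-fat livers. All 4 groups overlap one another. Its averaged diet change was -0.05 (95% interval -0.16 to 0.06, limma adjusted p = 0.667).

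The probe set of Pck1 (chr2:173153073-173159274) carried no usable signal. It lay at 2.59 to 3.21 on all 12 arrays, below 4.08, the lowest mean among the tested genes. Knockout high-fat livers averaged 2.84 ± 0.163 (SD, n = 3), wild-type high-fat 2.91 ± 0.309, knockout low-fat 2.80 ± 0.0936 and wild-type low-fat livers 2.75 ± 0.0898. Pck1 is known as an abundant mRNA of fasted liver, so these values are not taken as its level and it has no call in any comparison.

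Loss of Pml did not move any of these genes past the threshold on either diet. On the high-fat diet, the low-fat diet and averaged, 0 of the 7 members passed limma at an adjusted p of 0.05, against 0.00975%, 0.00975% and 0.0195% of all genes, and 0 had an unadjusted p under 0.05, against 4.46%, 8.72% and 7.26%. For the difference between the diet effects, too, 0 members passed in limma, against 0% of all genes, and 0 had an unadjusted p under 0.05, against 5.7%. Averaged over the diets, knockout minus wild-type log2 changes were -0.01 for Pklr (95% interval -0.31 to 0.28), 0.07 for Khk (-0.12 to 0.26), 0.04 for Gys2 (-0.10 to 0.17) and -0.02 for Pygl (-0.14 to 0.11). They were 0.01 for Fbp1 (-0.05 to 0.08), 0.10 for Slc2a2 (-0.01 to 0.21) and -0.03 for G6pc (-0.76 to 0.71). In fold terms the interval ran from 0.807 to 1.21 for Pklr and from 0.589 to 1.64 for G6pc, the widest of the 7. The smallest unadjusted p of the averaged changes was that of Slc2a2, 0.0822 (limma adjusted p = 0.73). All 3 knockout high-fat livers were at 11.78 or above and 2 of 3 wild-type high-fat livers below that. On the low-fat diet knockout replicate 2 (11.77) lay below all wild-type livers (11.79 to 11.91), and knockout replicates 1 and 3 (12.03 and 11.94) above them.

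On the high-fat diet Fbp1 was the 1 member whose genotypes did not overlap, with knockout livers at 13.06 to 13.11 and wild-type livers at 13.00 to 13.02. Its log2 change was 0.06 (SE 0.0428, limma adjusted p = 0.996), and such a separation with knockout higher was found for 6.62% of all genes. For G6pc the knockout minus wild-type log2 change was -0.37 on the high-fat diet (SE 0.48, limma adjusted p = 0.999) and 0.32 on the low-fat diet (SE 0.48, limma adjusted p = 0.901). A single liver turns either direction, since the change was 0.15 on the high-fat diet without knockout high-fat replicate 1 and -0.14 on the low-fat diet without wild-type low-fat replicate 1.

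**Figure D4:**
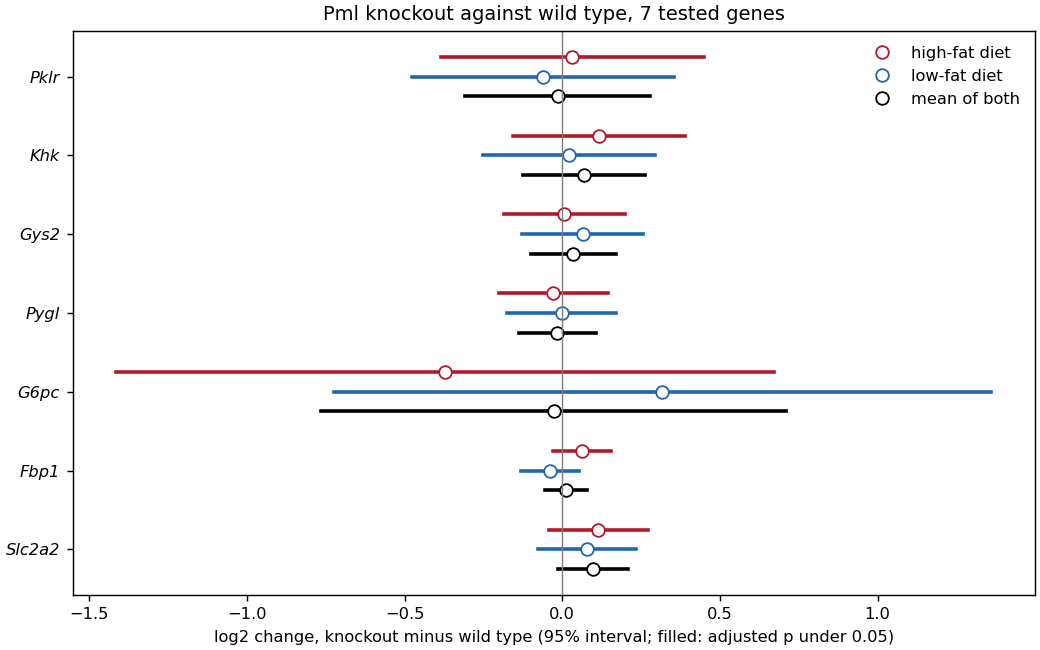
Log2 change in knockout minus wild-type livers (horizontal axis) of the 7 tested genes on the high-fat diet, on the low-fat diet and averaged; circles are limma estimates and lines 95% intervals, and a filled circle would mark an adjusted p under 0.05. All circles are open, and the widest intervals are those of G6pc and then Pklr.

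By share of its variance over the 12 livers, Gys2 had 75.4% between the diets and 0.815% between the genotypes. Pklr had 55.9% and 0.0449%, Pygl 49.6% and 0.379%, and Khk 43.6% and 2.83%. Slc2a2 was the member with more of its variance between genotypes (26.6%) than between diets (6.56%). For G6pc 69.2% lay within groups. These shares describe the brightest probe sets and carry no test.

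Among 8 lists of related genes, the targets of ChREBP had the median change farthest from 0. Of the 16 tested genes in that list, which includes Pklr, Khk and G6pc, 16 had a lower mean on the high-fat diet, 7 of them past the threshold, with a median log2 change of -0.47 over the list and -0.004 over all 10258 genes. Over all genes 51.2% were lower and 1.99% passed as lower. The list also holds enzymes of fat synthesis, and these lead it. The averaged log2 changes were -2.52 for Scd1, a desaturase, -1.87 for Elovl6, an elongase, -1.86 for Fasn, fatty acid synthase, -1.74 for Acacb, an acetyl-CoA carboxylase, and -0.95 for Acly, ATP citrate lyase. The remaining 2 that passed belong to sugar metabolism. Tkt, transketolase of the pentose phosphate pathway, averaged 10.14 ± 0.12 on the high-fat diet against 10.69 ± 0.193 on the low-fat diet (SD, n = 6 livers each, log2 change -0.56, SE 0.0868, limma adjusted p = 0.00431). Tkfc, the triose kinase that follows Khk in fructose breakdown, averaged 7.64 ± 0.0942 on the high-fat diet against 8.06 ± 0.14 on the low-fat diet (log2 change -0.42, SE 0.0785, limma adjusted p = 0.00949). Mlxipl, which encodes ChREBP, had -0.07 (SE 0.0766, limma adjusted p = 0.665).

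The lists that follow a pathway step by step had medians near 0. Their counts stand against 51.2% of all genes lower, 1.99% passed as lower, 2.57% passed as higher and 19.7% at an unadjusted p under 0.05. In glycolysis 9 of 14 tested genes were lower, 4 had an unadjusted p under 0.05 and 1 passed, the aldolase Aldoa, at 8.67 ± 0.0596 on the high-fat diet against 9.12 ± 0.178 on the low-fat diet (SD, n = 6 livers each, log2 change -0.45, SE 0.0672, limma adjusted p = 0.00361). In gluconeogenesis 6 of 9 were lower and 0 passed in limma, with 1 at an unadjusted p under 0.05, Got2, the mitochondrial aspartate aminotransferase (0.09, limma adjusted p = 0.13). Of 20 genes of glycogen metabolism 11 were lower, 8 had an unadjusted p under 0.05, and Gys2 was the 1 that passed. Gaa, the acid glucosidase that breaks down glycogen in lysosomes, passed in knockout livers (-0.35, limma adjusted p = 0.0498) but not averaged (-0.23, limma adjusted p = 0.0557). Medians were -0.04 for glycolysis, -0.05 for gluconeogenesis and -0.05 for glycogen metabolism.

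Of 5 genes of fructose and sorbitol metabolism 3 were lower, 2 had an unadjusted p under 0.05 and Tkfc passed (median -0.06). Of 7 transporters of glucose and monocarboxylates 4 were lower and 0 passed in limma, with 3 at an unadjusted p under 0.05 (median -0.01). The smallest p among them were those of Slc2a4 (-0.40, limma adjusted p = 0.0521), Slc2a9 (0.37, 0.0798), Slc16a7 (0.52, 0.0877) and Slc16a1 (-0.24, 0.514). Of 8 regulators of glucose enzymes 3 were lower, 1 had an unadjusted p under 0.05 and Pdk1, a kinase that switches off pyruvate dehydrogenase, passed (-0.35, SE 0.0877, limma adjusted p = 0.0429, list median 0.03). Pdk1 had -0.08 in knockout and -0.62 in wild-type livers, and the difference of 0.54 did not pass (limma adjusted p = 0.802). Of 20 transcriptional regulators 14 were lower and 4 had an unadjusted p under 0.05 (median -0.07). Cebpa, a factor of hepatocyte identity, passed averaged (-0.40, SE 0.0885, limma adjusted p = 0.0229) and Hnf4a, another such factor, passed in knockout livers (-0.39, limma adjusted p = 0.0229) but not averaged (-0.18, limma adjusted p = 0.0796). Between genotypes 0 genes of these 8 lists passed limma in any of the 3 comparisons. At an unadjusted p under 0.05 a list had 0 to 2 genes on the high-fat diet (4.46% of all genes), 0 to 3 on the low-fat diet (8.72%) and 0 to 6 averaged (7.26%). The 6 were among the 20 transcriptional regulators, of which 11 were higher and 9 lower in knockout livers.

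**Figure D5:**
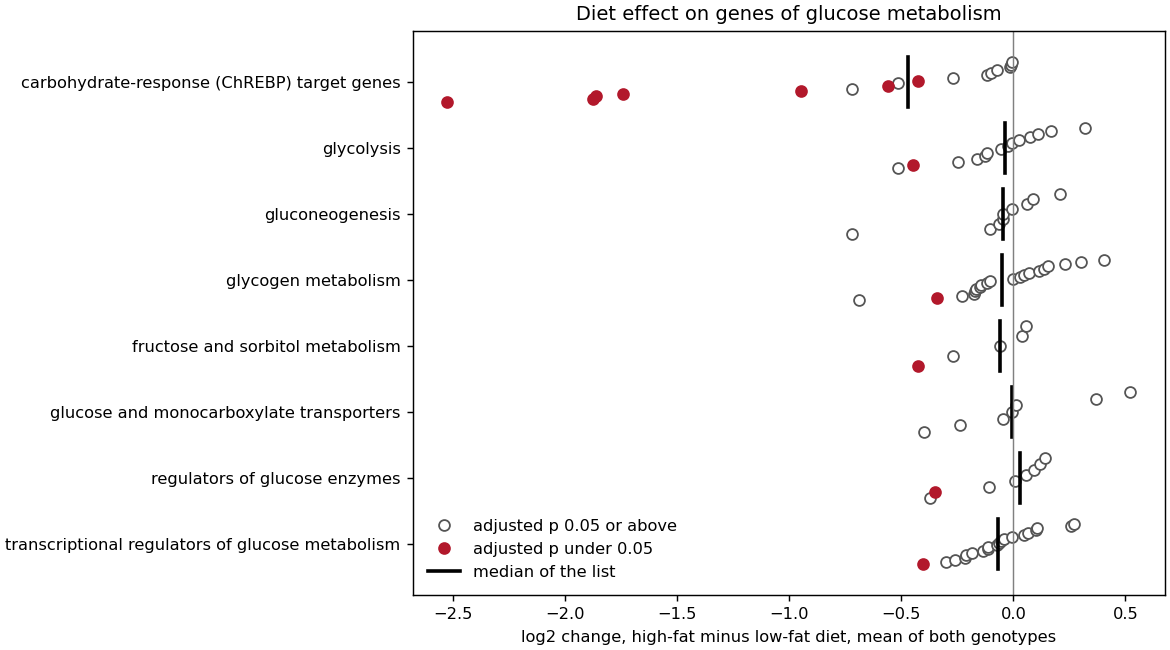
Log2 change on the high-fat minus the low-fat diet averaged over both genotypes (horizontal axis) of the tested genes in 8 lists of glucose metabolism; each circle is a gene, filled where the limma adjusted p was under 0.05, and black bars are list medians. The ChREBP target list has its median at -0.47, and the other 7 lists have theirs between -0.07 and 0.03.

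The genes whose signals ran most nearly parallel to a member were found by Pearson's r over the 12 arrays among all tested genes outside the 8, as a description, since diet and genotype are shared by all of them. For Pklr they were Vwce (r = 0.964), Ifitm2 (0.932) and Tkfc (0.920), and for Khk they were Mmp24 (0.935), Ggt6 (0.934) and Tm6sf2 (0.926), a protein of lipoprotein secretion. For Gys2 they were the protease Ctsc (0.949), which is also one of the periportal markers, Hook2 (0.907) and Mif (0.881). All 3 were lower on the high-fat diet past the threshold (averaged log2 changes of -0.46, -0.53 and -0.23). Pygl ran with Pdhb, a subunit of pyruvate dehydrogenase (0.873), Frrs1 (0.859) and Fasn (0.842). Passing as lower was not particular to the genes like Gys2. It was also found for the 3 genes named for Pklr (-0.39, -0.32 and -0.42), for Tm6sf2 (-0.68) and for Fasn (-1.86). G6pc ran with Slc25a25, a mitochondrial carrier of ATP-magnesium and phosphate (0.896), Rnaseh2c (0.892) and Mpp5 (0.850). For Fbp1 they were Gopc (0.925), Zyx (0.846) and Pidd1 (0.844), and for Slc2a2 Nadsyn1 (0.932), Pcna (0.904) and Sptssa (0.885). None are given for Pck1, whose probe set carried no usable signal.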

How the data were processed

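Total RNA of liver was labelled with biotin and hybridised to 12 arrays, per the labels. The deposited values are log2 signals, and the submitters' processing notes name RMA without a version. RMA forces the arrays toward a common distribution, so a change shared by all genes would not show, and it narrows differences at both ends of the signal range. Of 45141 probe sets, 28898 had a single gene symbol, and 28689 of their gene identifiers were found in the RefSeq gene table, with 0 symbols changed. The brightest probe set stood for a gene, and the 40% of the 17097 genes with the lowest mean were left out, which left 10258 with a mean of at least 4.08. Means of the 4 groups were fitted over all 12 arrays in R 4.3.3 with limma 3.58.1 and a variance trend (8 residual degrees of freedom), and 7 comparisons were drawn from this fit, each with a Benjamini-Hochberg correction over all genes. The other Pklr probe sets were tested in the same model over all single-gene probe sets. Values after ± are SD. Precision is limited by having 3 arrays per group, and an exact permutation test of 3 against 3 arrays cannot go below p = 0.1. The averaged comparisons set 6 arrays against 6 and do not have that floor. For a single model over all comparisons limma was used throughout.

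The named genes are the 8 members, genes of 8 pathway lists called in a comparison (or else the 4 with the smallest p in the averaged diet comparison), and the 3 genes most like each member but Pck1 by Pearson's r. Any other gene named, such as Mlxipl, was chosen after its values were seen. The members and lists were chosen with earlier results of these data known. Alternatives were another scaling, filter, probe set rule or variance model, the 2 groups alone, the replicate block, a looser threshold and leaving out each array.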

Additional observations from a re-analysis of the deposited data

How the results depend on the processing

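Over 23 or 24 alternatives, 1129 of 1155 alternative values of the members' 49 log2 changes kept their side of the threshold, 26 crossed it, 0 called values turned their sign, and 70 uncalled values changed sign. In the averaged diet comparison 1 member, Gys2, passed, and Pklr passed as well with quantile normalization, median centring, a 60% filter on dim genes and an adjusted p of 0.10, which made 2 each. The labels do not say that a replicate number marks shared livers or batches, so the main fit took no pairing from the numbers. With group means taken off, same-numbered livers had r from -0.166 to 0.381 over 18 pairs (mean 0.0655). Livers with different numbers had r from -0.454 to 0.249 over 36 pairs (mean -0.0328). These ranges overlap and cannot show whether the numbers mark a pairing. With the replicate block 3 passed (Pklr, Gys2 and Khk, adjusted p = 0.0311, 0.0146 and 0.0455). Leaving out each array gave 1 to 3, the 3 without wild-type low-fat replicate 3, where Pygl passed too. In knockout livers alone the count of 1 became 0 with median centring, no filter, probe sets averaged per gene, all probe sets in the fit, no variance trend, the replicate block, the 2 groups alone and without the 2 arrays low in macrophage markers (chosen after seeing the data), and 0 to 1 with an array left out. The Gys2 adjusted p in those 8 fits ran from 0.0526 to 0.204. The cause was not tested. The other 5 comparisons had 0 members in every alternative. With the mean of the 3 probe sets, Pklr had -0.48 (adjusted p = 0.16). The ChREBP target list had 7 to 9 genes lower past the threshold in all 23 alternatives, and 7 without the 2 arrays low in macrophage markers. Quantile normalization and median centring moved the median of all genes by less than 0.03.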

Other observations

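Among the marker lists of other cell types, 11 tested endothelial markers had a median log2 diet change of -0.26, 10 macrophage markers 0.38, 6 stellate cell markers 0.21, 5 neutrophil markers 0.14, 4 lymphocyte markers 0.04 and 9 hepatocyte markers had -0.06. Each had 0 members past the limma threshold, and 1, 0, 1, 0, 1 and 2 of them had an unadjusted p under 0.05, in the same order. Over all genes in this averaged comparison, 19.7% had an unadjusted p under 0.05, 1.99% passed as lower and 2.57% as higher. Cholangiocyte, adipocyte and kidney markers had 1 tested gene each and exocrine pancreas markers 2, of which Cela1 passed as higher. The members' values were not adjusted for any of these lists.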
